A study of Mus musculus with 6 samples.

Results

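Accessibility was read at 10 genes of the mouse interferon response: the immunity-related GTPases Irgm1, Irgm2, Igtp, Tgtp1, Tgtp2, Iigp1 and Gm12185, the guanylate-binding proteins Gbp2 and Gbp3, and the transcription factor Irf1. They are 10 of 21938 protein-coding genes, and all 10 passed the filter on low counts that left 17163 promoters. They were selected on earlier readings of these libraries, namely their cut sites in injured against uninjured cells, so their values in that comparison are given as a description without a test. Each gene was read as Tn5 cut sites, the ends of the sequenced fragments, within 1 kb of its annotated start and over its body.

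Interferons bind receptors that activate JAK kinases, which phosphorylate STAT proteins. STAT dimers bind GAS elements, and complexes that contain IRF9 bind ISRE elements. Irf1 is itself induced through a GAS element and its product binds ISRE-like sites. Immunity-related GTPases and guanylate-binding proteins are large GTPases that act on the vacuoles of intracellular pathogens, and the Irgm subfamily (Irgm1, Irgm2 and Igtp) keeps the effector GTPases (Tgtp1, Tgtp2, Iigp1) inactive on the cell's own membranes.

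The study compared horizontal basal cells, the quiescent reserve stem cells of the olfactory epithelium, before and after injury. All mice carried Krt5CreER and Rosa26 LSL-YFP/LSL-YFP, so YFP marks cells that had Krt5-driven recombination and whatever descended from them. Live YFP-positive cells were sorted from dorsal epithelium of 3 uninjured samples (treatment labelled control) and of 3 samples taken 24 h after intraperitoneal methimazole, an olfactotoxicant. Replicate 1 was 8 weeks old, replicate 2 was 6 weeks old and replicate 3 was 6 to 7 weeks old in each group. The replicates are called biological, and tissue was dissociated animal by animal, but whether a library holds 1 animal or several is not stated, and p-values measure the spread between these libraries.

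Barcodes with at least 2000 fragments numbered 454, 889 and 629 in the uninjured and 1338, 420 and 746 in the injured libraries, with 14825320 to 44875242 cut sites per library. Of these barcode sequences, 53 of 4420 occurred in more than 1 library. Stretches covered by more than 2 fragments marked 543 barcodes as doublets, and these were kept. Clusters with the marker pattern of horizontal basal cells (called HBC-like) held 85.2%, 76.3% and 73.3% of uninjured and 92.6%, 79.5% and 56.7% of injured barcodes, 105 barcodes were sustentacular-like and 350 were like mature olfactory sensory neurons (OSN-like). Clusters of 198, 182 and 119 barcodes stayed unnamed. The share of cut sites that fell in promoters was 27.7% to 29.4% in uninjured and 21.7% to 24.4% in injured libraries. Values are given as CPM, cut sites scaled to a common library size, with TMM factors computed for each table, so levels at starts, over bodies and in open regions are on separate scales. For promoters this sets the median change near 0. Scaled by all cut sites the median promoter moved by -0.28 on the log2 scale, and scaled by 10 kb bins by -0.54, so each change at a start is relative to the typical promoter, and each body or region change to the typical body or region. Among 17163 promoters, 378 were called higher and 294 lower (edgeR quasi-likelihood, adjusted p under 0.05), and 417 and 6595 when scaled by all cut sites.

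The sequences just before the starts show which elements the GTPase genes share. Iigp1 was not among the promoter sequences searched. The 120 bases upstream of the RefSeq start (GRCm38.p6, coding strand, 5′ to 3′) are printed for 7 of the genes, with GAS, ISRE and AP-1 matches in capitals. They lie at chr11:48871421-48871540 (Irgm1, minus strand), chr11:48992247-48992366 (Tgtp1, minus strand), chr11:49064213-49064332 (Tgtp2, minus strand), chr11:48927183-48927302 (Gm12185, minus strand), chr11:58199436-58199555 (Igtp, plus strand), chr11:58214857-58214976 (Irgm2, plus strand) and chr11:53769894-53770013 (Irf1, plus strand).
Irgm1: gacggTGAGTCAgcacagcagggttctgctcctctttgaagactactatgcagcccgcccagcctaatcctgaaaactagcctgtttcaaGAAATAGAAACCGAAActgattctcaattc
Tgtp1: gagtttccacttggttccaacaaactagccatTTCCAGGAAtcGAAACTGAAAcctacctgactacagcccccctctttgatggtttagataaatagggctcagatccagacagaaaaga
Tgtp2: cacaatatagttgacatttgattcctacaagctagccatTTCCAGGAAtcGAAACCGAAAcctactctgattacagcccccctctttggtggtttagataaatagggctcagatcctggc
Gm12185: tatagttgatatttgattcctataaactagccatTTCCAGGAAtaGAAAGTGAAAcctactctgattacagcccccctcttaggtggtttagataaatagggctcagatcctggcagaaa
Igtp: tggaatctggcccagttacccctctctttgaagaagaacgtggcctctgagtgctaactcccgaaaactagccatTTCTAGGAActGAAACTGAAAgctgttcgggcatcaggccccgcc
Irgm2: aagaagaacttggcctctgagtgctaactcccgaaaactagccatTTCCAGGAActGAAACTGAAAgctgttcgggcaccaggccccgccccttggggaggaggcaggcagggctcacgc
Irf1: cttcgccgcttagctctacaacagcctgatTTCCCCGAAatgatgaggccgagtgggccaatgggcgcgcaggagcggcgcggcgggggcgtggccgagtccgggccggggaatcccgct

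The motifs searched on both strands were GAS (TTCNNNGAA), ISRE (GAAA, any 2 bases, GAAA) and AP-1 (TGANTCA). Tgtp1, Tgtp2, Gm12185, Igtp and Irgm2 each hold a GAS followed by an ISRE with 2 bases between them. Over 32851 RefSeq promoters of 300 bases, 8.30% hold the GAS letters, 3.44% the ISRE letters, 0.454% both of these and 7.81% the AP-1 letters. Irgm1 has a pair of overlapping ISRE matches and an AP-1 match, Gbp2 an ISRE and an AP-1 match, and Gbp3 a pair of ISRE matches. Irf1 has the GAS match and neither of the others in this window.

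The copies are close, and annotation and mapping both limit how far they can be told apart. The 300-base promoters of Tgtp2 and Gm12185 are 93.4% identical, those of Igtp and Irgm2 72.8% and those of Tgtp1 and Tgtp2 67.0%. Of the 50-base stretches in the 2 kb window, all were unique in the genome at Irgm1, Irf1, Gbp2 and Gbp3, but 37.3% at Tgtp2 and 58.4% at the RefSeq start of Tgtp1. How the authors' alignment placed reads with more than 1 match is not given in the sources used here, so single values of Tgtp1, Tgtp2 and Gm12185 are uncertain and their sum is given too. The GENCODE start of Gm12185 that lies farthest upstream is 20 bp from the RefSeq start of Tgtp1, and that of Irgm2 is 62 bp from the start of Igtp. For Gm12185, Tgtp1 and Irgm2 the windows at the RefSeq starts are therefore shown beside those at the 5′-most starts.

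After injury, the starts of Irgm1, Tgtp1, Gm12185 and Irf1 had lower accessibility relative to the typical promoter, while those of Gbp3 and Iigp1 had overlapping values in the groups. Irgm1, a regulatory GTPase needed for resistance to intracellular bacteria, had the second highest level of the 10 windows. Its 5′-most window (chr11:48870683-48872683) read 39.1, 36.9 and 20.9 CPM in the uninjured libraries and 14.6, 17.6 and 11.1 CPM in the injured libraries, each listed from replicate 1 to 3. Every injured library lay below every uninjured library, and uninjured replicate 3 lay nearest to the injured group. The group means were 32.3 ± 9.92 and 14.4 ± 3.26 CPM (SD, n = 3 each), a log2 change of -1.17 ± 0.27 (SE). In a sorted mixture, fewer cells of a kind and less signal per cell cannot be told apart in such sums.

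Irf1, the transcription factor of the group, was the most accessible of the 10 at its start (chr11:53769014-53771014). It read 40.7, 35.7 and 33.9 CPM in uninjured and 21.9, 23.5 and 24.7 CPM in injured libraries. The gap between the groups was wider than the spread within either. Its log2 change of -0.65 ± 0.09 was smaller than that of Irgm1 but had the smallest SE of the 10.

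Tgtp1, an interferon-inducible effector GTPase, has a GENCODE start 1926 bp upstream of its RefSeq start. At the RefSeq start (chr11:48991246-48993246) it read 5.46, 7.03 and 2.96 CPM in uninjured and 1.37, 1.17 and 0.806 CPM in injured libraries, a log2 change of -2.20 ± 0.36. All injured values lay below all uninjured ones. The raw counts were 91, 248 and 104 against 54, 24 and 28 cut sites. At the upstream start the change was -1.17 ± 0.24.

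Gm12185, a predicted member of the same GTPase family, had few cut sites at its own RefSeq start (chr11:48926182-48928182). It read 2.28, 1.84 and 0.767 CPM in uninjured against 0.253, 0.585 and 0.547 CPM in injured libraries, a log2 change of -1.82 ± 0.54. The groups did not overlap, but the closest pair of values was 0.767 and 0.585. The change of -2.21 ± 0.36 at its 5′-most start comes from the window that covers the start of Tgtp1.

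Tgtp2, the near copy of Tgtp1, was close to the detection limit, with 0.881 to 0.907 CPM in uninjured and 0.487 to 0.575 CPM in injured libraries, and its log2 change of -0.77 rested on 10 to 32 cut sites per library. Read together at their RefSeq starts, Tgtp1, Tgtp2 and Gm12185 gave 8.65, 9.78 and 4.604 CPM in uninjured and 2.13, 2.24 and 1.93 CPM in injured libraries. The sum changed by -1.87 ± 0.29 on the log2 scale, and uninjured replicate 3 lay nearest to the injured group.

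Igtp and Irgm2, regulatory GTPases encoded side by side, changed less. Igtp read 4.503, 5.72 and 4.21 CPM in uninjured and 3.32, 3.85 and 2.70 CPM in injured libraries, a log2 change of -0.56 ± 0.25 without overlap. Irgm2 at its RefSeq start (chr11:58213977-58215977) read 6.06, 6.26 and 3.33 CPM against 3.39, 3.70 and 2.73 CPM, a change of -0.67 ± 0.28. Its values overlapped, because uninjured replicate 3 lay inside the injured range. Together the 2 RefSeq windows changed by -0.61 ± 0.21.

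Gbp2 and Gbp3, GTPases that coat pathogen vacuoles, changed little relative to the typical promoter. Gbp2 read 11.6, 11.1 and 10.4 CPM in uninjured and 9.82, 10.0 and 8.46 CPM in injured libraries, which did not overlap but differed by only -0.23 ± 0.15. Gbp3 read 14.5, 14.8 and 8.78 CPM against 15.5, 12.0 and 7.74 CPM, a change of -0.10 ± 0.27, and replicate 3 was the lowest in both groups. Iigp1, an effector GTPase on chromosome 18, had 4 to 35 cut sites per library and a change of 0.08 ± 0.61, whose sign depended on the processing. Scaled by all cut sites 7 of the 10 genes were called lower, Gbp2 among them, beside 6595 of 17163 promoters, and scaled by 10 kb bins 9, all but Iigp1, beside 9854 of 17163. Nothing is read from these counts.

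**Figure D1:**
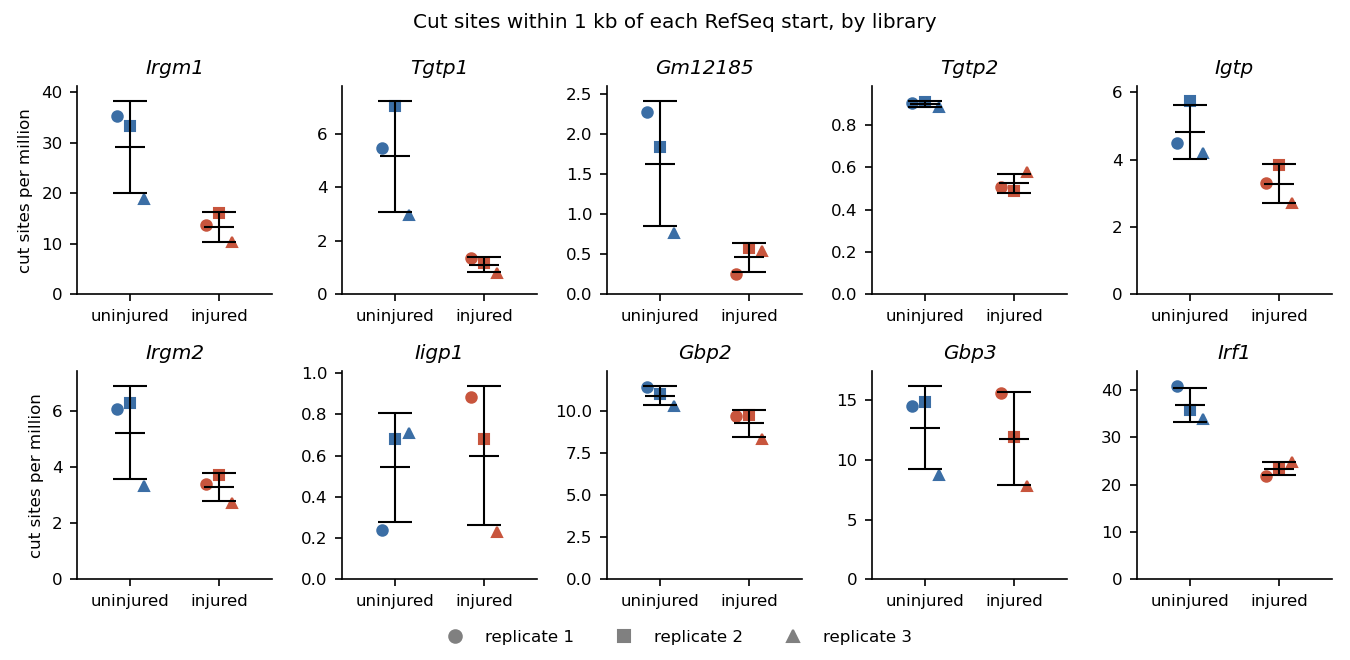
CPM (y, TMM-scaled) within 1 kb of the RefSeq start of each of the 10 genes, for 3 uninjured (blue) and 3 injured (red) libraries; bars are means ± SD and each panel has its own scale. Irgm1, Tgtp1 and Irf1 show separated groups, whereas Gbp3 and Iigp1 overlap.

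By the rule that every injured library lies below every uninjured one, 8 of the 10 5′-most starts were lower, and 14.3% of all promoters met that rule. Gm12185, Tgtp1 and Irf1 were among the promoters called lower by edgeR, a call made for 1.71% of all promoters. Irgm1 was not among them; it was with DESeq2, with a window of 500 bp, with the replicate block and without uninjured replicate 3. Tgtp1 lost its call without uninjured replicate 1 or 2 or injured replicate 1 or 2, and Gm12185 without injured replicate 2, which left Irf1 alone. The window of Gm12185 lies at the start of Tgtp1, and that of Irgm2, counted among the 8, at the start of Igtp. Because the genes were picked with this contrast in view, nothing is read from either count. The median log2 change of the 10 was -0.60, beside 0.00 over all promoters tested. All 10 windows summed, at the 5′-most starts, read 127, 123 and 88.6 CPM in uninjured and 71.9, 73.2 and 60.3 CPM in injured libraries, a log2 change of -0.72 ± 0.13.

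The gene bodies, read outside the window at the 5′-most start, had larger differences than the starts at Irgm1 and Irf1. The body of Irgm1 (gene at chr11:48861968-48871683) read 19.1, 13.04 and 18.02 CPM in uninjured and 3.37, 2.93 and 2.65 CPM in injured libraries, a log2 change of -2.48 ± 0.23. Here uninjured replicate 3 lay between the other two. The body of Irf1 read 38.9, 19.8 and 22.1 CPM in uninjured and 6.14, 4.499 and 9.03 CPM in injured libraries, a change of -2.02 ± 0.31. The body of Tgtp1 changed by -2.66 ± 0.36, but it contains the RefSeq start and its peak: it held 112, 281 and 117 cut sites in uninjured libraries, beside 91, 248 and 104 in the window at that start.

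The bodies of Igtp (-1.08 ± 0.35), Irgm2 (-1.06 ± 0.25), Tgtp2 (-1.18 ± 0.61) and Gbp2 (-0.96 ± 0.29) were also lower in every injured than in every uninjured library. That held for 7 of the 10 bodies, beside 13.1% of all bodies tested. The annotated body of Irgm2 contains most of Igtp and the RefSeq start of Irgm2, so its value is not that of a separate gene body. Gbp3 (0.28 ± 0.34), Iigp1 (0.04 ± 0.34) and Gm12185 (-0.41 ± 0.30) overlapped between the groups. The annotated body of Gm12185 spans 87571 bp and other genes. Of the 50-base stretches, 35.3% are unique in its body, 40.4% in that of Tgtp1 and 28.4% in that of Tgtp2, so these values are uncertain. The bodies of Irgm1, Irgm2, Tgtp1 and Irf1 were among those called lower (1.39% of 18772 gene bodies) and none of the 10 among those called higher (2.07%). The genes were selected on this contrast, and nothing is read from these counts. Without uninjured replicate 1, edgeR called 0 of 19216 bodies in either direction, the 10 included. At an unadjusted p under 0.05, 6 of the 10 were lower, beside 1235 of the 19216, and nothing is read from that count. The body of Irgm1 was the only one of all bodies called lower in each of the fits that left out the second uninjured, the first injured or the second injured library. Irgm1 was selected on this contrast in these same libraries, so nothing is read from those calls. DESeq2 on all libraries called 5 of the 10 and 925 of 18772 lower.

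**Figure D2:**
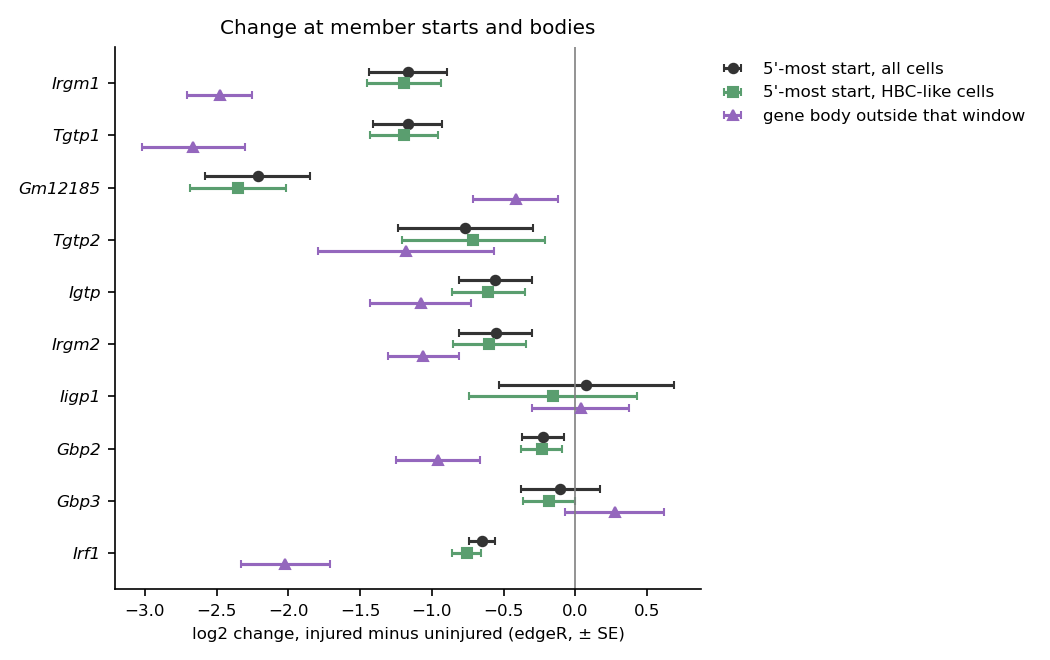
Log2 change (x, injured minus uninjured, edgeR estimate ± SE) for each gene at its 5′-most start in all cells, at the same start in HBC-like cells, and over the gene body outside that window. The body of Irf1 (-2.02) lies far below its start (-0.65), and the start of Irf1 changed by -0.65 in all cells and by -0.76 in HBC-like cells.

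Within the windows, separate peaks changed by different amounts. Irgm1 had a peak at the start and another about 1 kb upstream. The upstream peak (1200 to 700 bp before the RefSeq start) read 14.6, 12.6 and 5.91 CPM in uninjured and 3.67, 4.68 and 2.79 CPM in injured libraries, a ratio of means of 2.97. The peak at the start (600 bp before to 200 bp after) read 17.5 ± 4.63 CPM against 8.77 ± 1.95 CPM, a ratio of 1.99.

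At Tgtp1 the order was the other way round. The peak at the RefSeq start read 3.90, 5.72 and 2.53 CPM in uninjured and 0.861, 0.877 and 0.633 CPM in injured libraries, a ratio of 5.13. The peak 2200 to 1700 bp upstream, at the GENCODE start, read 5.62 ± 2.00 CPM against 2.38 ± 0.27 CPM, a ratio of 2.36. The start peak of Tgtp1 contains the GAS and ISRE letters printed above. The start peak of Irgm1, which differed less than its upstream peak, contains the ISRE pair of that gene, so no link to the motifs is read. The limits of the peaks were drawn after the profiles had been seen, and the differences between peaks were not tested.

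**Figure D3:**
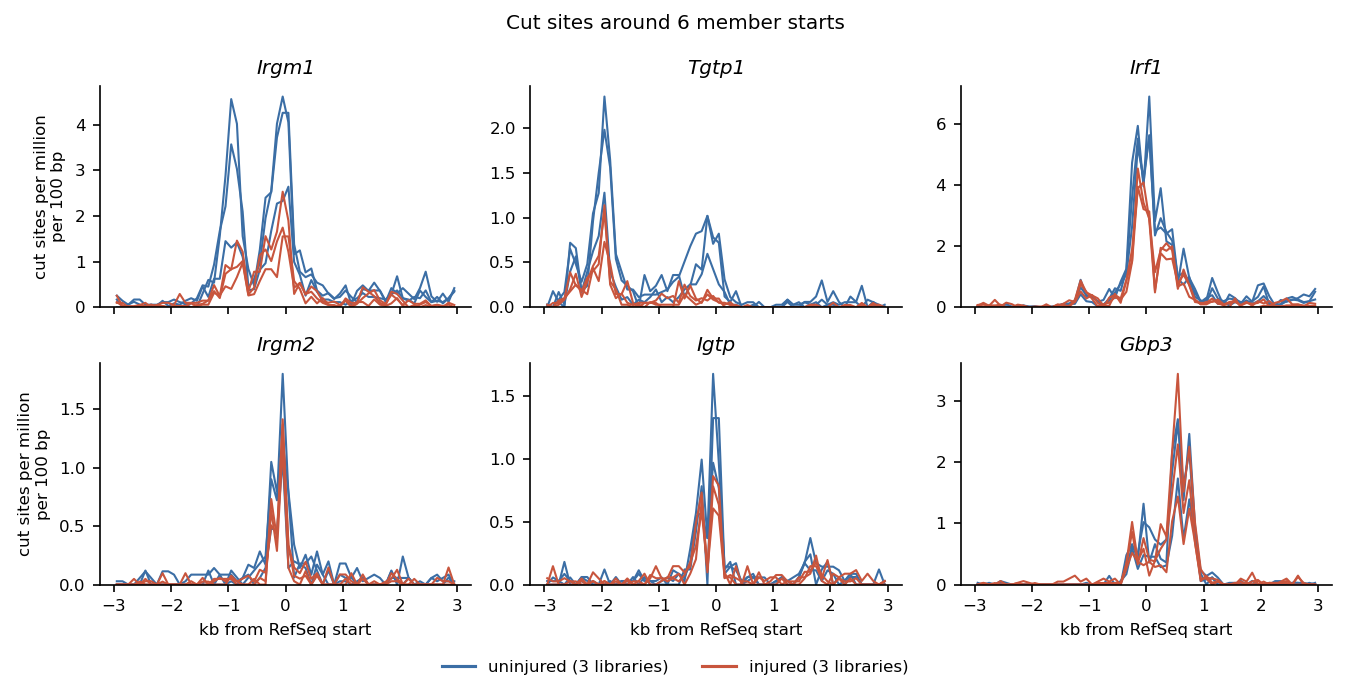
CPM in 100 bp bins (y) by distance from the RefSeq start in kb, in the direction of transcription (x), with 1 line per library. The upstream peak of Irgm1 and the start peak of Tgtp1 are low in all injured libraries, uninjured replicate 3 runs between the groups or close to the injured ones, and the profiles of Gbp3 overlap.

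Open regions, 500 bp tiles with at least 5 times the median tile's signal merged where adjacent, placed these changes in each locus. Of 67 regions within 50 kb of a member's start, 9 were called lower and 2 higher, beside 1.55% and 5.96% of 160731 regions tested, and nothing is read from these counts. The region over the start of Irgm1 (chr11:48868001-48873500) changed by -1.38 ± 0.26, whereas the strongest neighbouring region, 15 kb downstream in Gm16170 (chr11:48852501-48859500), read 58.1 ± 7.53 and 55.3 ± 12.8 CPM. The region joining the Tgtp1 and Gm12185 starts (chr11:48992001-48995000) changed by -1.63 ± 0.28. The regions over the starts of Igtp (-0.82 ± 0.31), Irgm2 (-0.80 ± 0.34), Gbp2 (-0.40 ± 0.20) and Gbp3 (-0.28 ± 0.31) changed less. Inside the gene Irgm1, regions at chr11:48862501-48865500 and chr11:48866501-48867500, named after their values had been seen, changed by -3.16 ± 0.43 and -3.89 ± 0.73. Without injured replicate 2, edgeR called 0 regions genome-wide in either direction, with 8766 lower and 17311 higher at an unadjusted p under 0.05 (DESeq2 on all libraries called 4427 lower and 14265 higher).

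The Irf1 locus was lower over a long span. A region of 18500 bp that covers the gene (chr11:53768501-53787000) read 129, 89.3 and 93.9 CPM in uninjured and 42.1, 40.9 and 40.4 CPM in injured libraries, a change of -1.34 ± 0.14. A region upstream (chr11:53758001-53765000) read 102, 86.9 and 69.1 CPM against 45.9, 46.8 and 41.4 CPM, a change of -0.94 ± 0.14. In 500 bp tiles, the highest upstream tile, which starts 6500 bp before the gene, read 28.0 ± 4.25 against 13.3 ± 2.63 CPM, a ratio of 2.10.

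The tile that starts 11000 bp after the Irf1 start, beyond the gene's annotated end, read 4.26, 2.30 and 3.13 CPM in uninjured and 0.633, 0.536 and 0.575 CPM in injured libraries, a ratio of 5.55. The 2 tiles at the start itself had ratios of 1.47 and 1.77. The promoter window thus showed a smaller difference than the flank, and these tiles were singled out after their values had been seen.

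**Figure D4:**
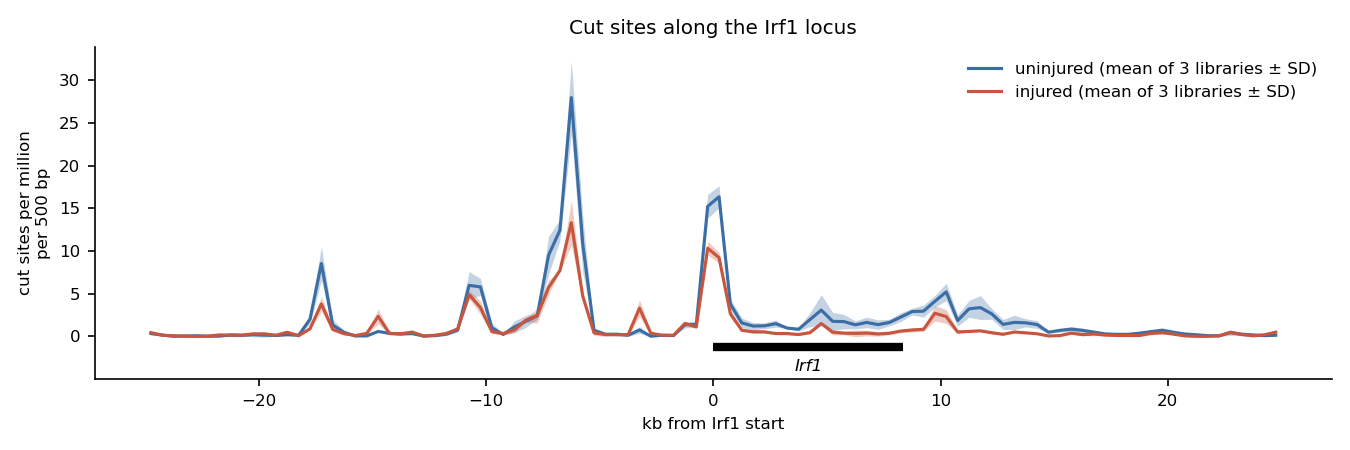
CPM in 500 bp tiles (y) by distance from the Irf1 start in kb (x); lines are means of 3 libraries and bands ± SD, and the black bar is the annotated gene. Uninjured libraries are higher at the peak 6.5 kb upstream (28.0 against 13.3), at the start, and over the body and flank, while 2 small upstream peaks are higher after injury.

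The cells that carry the signal were then separated by clustering on regions more than 100 kb from any gene of the interferon lists. Clusters 1, 2, 8, 9 and 10 were HBC-like. The name rests on the median of 8 markers (Krt5, Krt14, Krt15, Trp63, Icam1, Itgb4, Col17a1 and Cav1) and does not tell kinds of basal cell apart. Not all 8 stood clearly above the mean of the clusters: 5, 6, 6, 4 and 5 did in clusters 1, 2, 8, 9 and 10. In the unnamed cluster of 182 barcodes 4 did. Leading genes included F2, Depp1 and Reg3g in cluster 2, Depp1, Reg3g and Pax9 in cluster 9, and Krt16 and Krt6a in clusters 8 and 10. In clusters 2, 8 and 9 the respiratory marker list had the second highest level. Cluster 1 held 71.1%, 62.9% and 24.5% of the barcodes of uninjured replicates 1 to 3 and 0.374%, 0.476% and 0.536% of the injured ones. Cluster 8 held 575, 182 and 106 injured barcodes and 4 others of its 867, cluster 10 held 419, 70 and 34 injured barcodes and 1 other of its 524, cluster 9 came mostly from uninjured replicate 3 (166 of 185), and cluster 2 from both groups. At a finer resolution the cells of cluster 2 fell mainly into a cluster of 60, 115 and 132 uninjured and 13, 5 and 49 injured barcodes and a cluster of 6, 5 and 5 uninjured and 217, 77 and 220 injured ones. The uninjured and injured cells of cluster 2 compared below were thus largely of different finer clusters. In replicates 1 and 2 a comparison of HBC-like cells thus sets mainly cluster 1 against clusters 8 and 10. In replicate 3 it does not: of 461 uninjured HBC-like barcodes 154 were in cluster 1, 137 in cluster 2 and 166 in cluster 9, and of 423 injured ones 271 were in cluster 2.

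Restricted to HBC-like cells, Irgm1 read 46.8, 46.3 and 25.7 CPM in uninjured and 16.0, 20.6 and 15.3 CPM in injured libraries, a change of -1.19 ± 0.26. Irf1 changed by -0.76 ± 0.10 and the sum of Tgtp1, Tgtp2 and Gm12185 at RefSeq starts by -1.93 ± 0.28. Irgm1, Gm12185, Tgtp1 and Irf1 were among the promoters called lower (2.57% of 15760) and none of the 10 among those called higher (4.58%). Irgm1 kept its call only without uninjured replicate 3 of the 6 fits that left out a library, and Tgtp1 lost its call without injured replicate 1. These are cells of the libraries on which the genes were selected, and nothing is read from these counts either. For these genes the changes were as large as those over all cells.

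Irgm1 was highest in cluster 1, with 46.3, 43.9 and 36.7 CPM at its RefSeq start in uninjured replicates 1 to 3 (scaled so that the median promoter is equal between clusters). In cluster 2 it read 19.2, 20.05 and 13.8 CPM in uninjured and 12.0, 12.8 and 12.6 CPM in injured libraries. In the injured cells of cluster 8 it read 14.9, 19.4 and 17.3 CPM, within the range of uninjured cells of cluster 2. OSN-like cells, a differentiated cell type, read 6.1 CPM in uninjured and 3.7 CPM in injured replicate 3.

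Tgtp1, Tgtp2 and Gm12185 together separated cluster 1 further, with 13.3, 13.2 and 11.2 CPM. All other HBC-like clusters were at or below 4.67 CPM in every library with 50 or more of their barcodes, uninjured libraries included. Cluster 2 read 0, 4.67 and 4.49 CPM in uninjured and 4.21, 1.601 and 3.03 CPM in injured libraries, which overlapped.

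Irf1 behaved differently across clusters. It read 49.8, 40.7 and 37.0 CPM in cluster 1 and 40.9 CPM in cluster 9. In cluster 2 it read 29.96, 28.8 and 37.3 CPM in uninjured and 27.2, 32.2 and 33.5 CPM in injured libraries. In cluster 8 it read 21.8, 19.6 and 20.8 CPM, below every HBC-like cluster of the uninjured libraries. Summed over all 10 genes, cluster 2 read 79.8, 93.1 and 84.7 CPM in uninjured and 89.3, 87.8 and 85.6 CPM in injured libraries, against 159, 146 and 132 CPM in cluster 1.

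Gbp2 and Gbp3 together read 31.9 to 32.7 CPM in cluster 1, and cluster 2 of the injured libraries reached 28.4 to 36.6 CPM. They read 2.04 CPM in uninjured and 0.861 CPM in injured OSN-like cells of replicate 3. Gbp2 alone read 11.97 to 13.8 CPM in the uninjured cells of cluster 1 and 10.1 to 11.1 CPM in the injured cells of cluster 8. In cluster 10 it read 6.28 and 3.74 CPM in injured replicates 1 and 2. Gbp3 alone read 18.2 to 19.8 CPM in the same cells of cluster 1 and 11.1 to 16.1 CPM in those of cluster 8. In cluster 10 it read 17.8 and 12.3 CPM. In the uninjured cells of cluster 2, Gbp2 read 11.7 to 17.9 CPM and Gbp3 8.15 to 12.9 CPM. Tgtp1, Irgm1 and Gm12185 were among the leading genes of cluster 1, with regions near them left out of the clustering. Cluster 1 held almost only uninjured barcodes and the genes were selected on injured against uninjured cells, so nothing is read from this. The annotated bodies of Gm12185 and Tgtp1 overlap, so part of their signal is the same cut sites. These comparisons between clusters have no test.

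**Figure D5:**
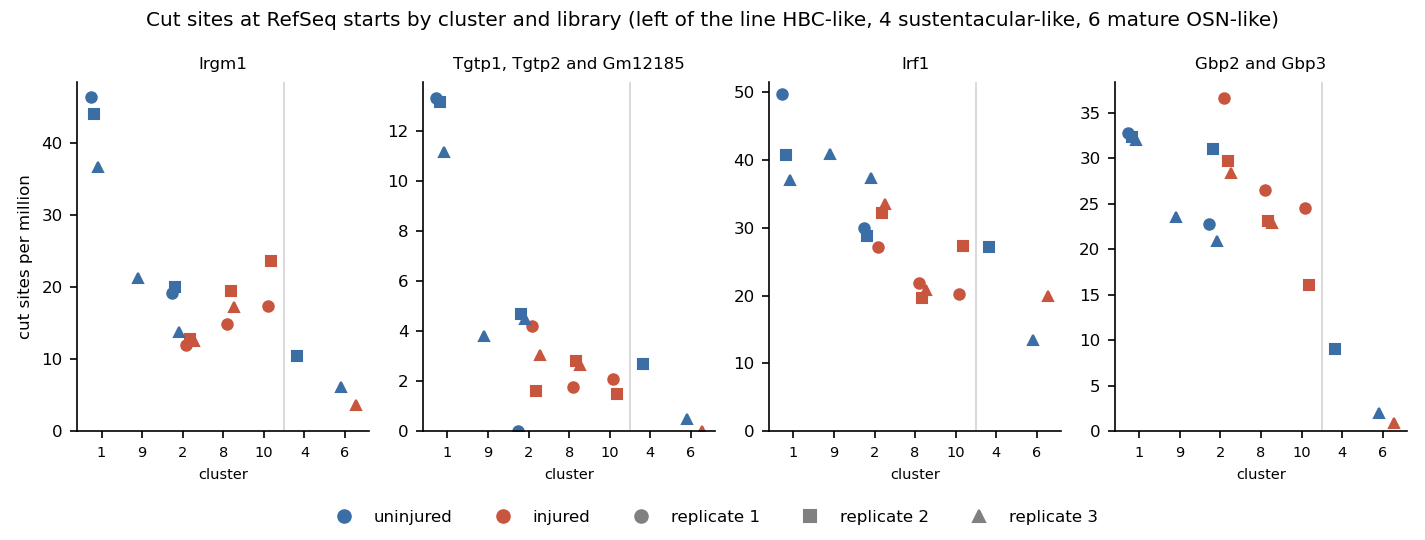
CPM at RefSeq starts (y, scaled to an equal median promoter) by cluster (x) and library, for Irgm1, the 3 Tgtp-like genes, Irf1, and Gbp2 with Gbp3; each point is a library with at least 50 barcodes in that cluster. Cluster 1, found almost only in uninjured libraries, is highest for Irgm1 and the Tgtp-like genes, and the blue and red points of cluster 2 overlap for all but Irgm1.

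With each barcode thinned to 2000 fragments, 10.9% (8.13% to 14.3%, 95% Wilson interval), 9.73% and 4.34% of HBC-like cells of uninjured replicates 1 to 3 had a cut site at the Irgm1 start, and 3.87%, 4.49% and 4.73% of injured ones. OSN-like cells, 27 to 167 per library, gave 0% to 3.70%. Unthinned, the HBC-like shares were 43.2%, 36.7% and 39.3% against 17.4%, 32.04% and 23.4%. Uninjured replicate 3 lay among the injured libraries in the thinned share but above them in CPM, so no order is read from its share. Intervals cover counting error only.

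Immune cells also express these genes. Immune-like barcodes (a cluster of 56 at a finer resolution) made up 0.318% to 2.14% of uninjured and 0.673% to 1.88% of injured libraries. Pooled over libraries they read 37.2 CPM at Irgm1 and 65.7 CPM at Irf1, unscaled. The 10 tested of 12 immune marker promoters summed to 2.52 to 3.51 CPM in uninjured and 4.56 to 7.70 CPM in injured libraries. Ptprc, the pan-leukocyte marker among them, read 0.720, 0.567 and 0 CPM in uninjured and 0.658, 0.633 and 0.230 CPM in injured libraries, which overlapped. Spi1, another of them, read 0, 0.425 and 0.0853 CPM in uninjured and 0.329, 0.974 and 0.834 CPM in injured libraries. Its values were mostly higher after injury but overlapped too. The part of immune cells in the differences was not tested.

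The other genes of the pathway, from ligands and receptors to other targets, were taken from lists made with earlier results known. Of 88 such genes 72 were tested, of which 9 were called lower and 2 higher, beside 1.71% and 2.2% of all promoters. Scaled by all cut sites 40 were called lower, beside 6595 of 17163 promoters, and by 10 kb bins 48, beside 9854 of 17163. The 9 lower calls were lost (0 by edgeR) without uninjured replicate 1 or 2 or injured replicate 1 or 2. In those fits 20 to 27 were lower at an unadjusted p under 0.05, beside 1484 to 1567 of 17604 to 17987 promoters. Without uninjured replicate 3 the calls became 14, beside 306 of 17979. With all libraries 26 were lower at an unadjusted p under 0.05, beside 1951 of 17163, and DESeq2 called 13, beside 477 of 17163. Nothing is read from these counts.

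Of 5 interferon ligand genes tested, edgeR called 0, DESeq2 called 0 and 0 had an unadjusted p under 0.05. Their median log2 change was 0.27, with 2 estimates below 0, and that of the 9 receptors and kinases was -0.22. Among 9 receptors and kinases, 1 was called lower: Ifnlr1, the specific chain of the type III interferon receptor, read 22.03, 20.3 and 18.99 CPM in uninjured and 11.3, 14.4 and 16.7 CPM in injured libraries (log2 change -0.53 ± 0.14, edgeR adjusted p = 0.045). The interferon gamma receptor chains did not pass, with changes of -0.11 ± 0.08 for Ifngr1 and -0.28 ± 0.12 for Ifngr2.

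Of 10 STAT and IRF factors, 3 were called lower, with a median of -0.22. All 10 estimates were below 0, as were 8511 of 17163 over all promoters, and nothing is read from that count. Irf7, which amplifies type I interferon production, fell by 0.63 on the log2 scale (adjusted p = 0.013), from 18.7 to 24.5 CPM to 13.2 to 15.3 CPM. Irf8, a myeloid IRF, changed by -0.64 ± 0.16 and Stat2 by -0.35 ± 0.08. Irf9, the DNA-binding part of the complexes at ISRE elements, did not pass, with a change of -0.34 ± 0.10 (edgeR adjusted p = 0.076).

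Among 5 inhibitors of the pathway, with a median of -0.25, Socs3 (-0.33 ± 0.09) and the phosphatase gene Ptpn2 (-0.29 ± 0.07) were called lower. Socs1, an interferon-induced inhibitor of JAK kinases, read 54.7, 51.2 and 44.8 CPM in uninjured and 53.8, 50.0 and 42.2 CPM in injured libraries, a change of -0.04 ± 0.10. Of 11 antigen presentation genes, 3 were called lower: Nlrc5, the activator of class I genes (-0.80 ± 0.16), and Psmb9 (-0.42 ± 0.10) with Tap1 (-0.41 ± 0.10), which share one promoter window. The list's median was -0.35.

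Of 21 targets of type I interferon, edgeR called 0 lower (4 at an unadjusted p under 0.05, 2 by DESeq2) and 1 higher, with a median of -0.11. The higher one was Rsad2, an antiviral radical SAM enzyme, at 3.90, 5.21 and 6.00 CPM in uninjured and 9.64, 8.72 and 8.75 CPM in injured libraries (0.83 ± 0.20, edgeR adjusted p = 0.037). It and Irgc1 were the only higher calls among the 72 genes. In edgeR fits without the second uninjured, the first injured or the second injured library, 0 of these genes were called higher. At an unadjusted p under 0.05, 5, 3 and 3 of them were higher there, beside 1480, 1356 and 1397 of all promoters. DESeq2 on all libraries called 2 higher, beside 633 of 17163.

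The 6 other immunity-related GTPase genes tested had a median of 0.10, with 1 estimate below 0. Among them edgeR called 0 lower (0 at an unadjusted p under 0.05, 0 by DESeq2) and 1 higher (2 at an unadjusted p under 0.05, 1 by DESeq2). That gene, Irgc1, a family member known for expression in testis, went from 0.199 to 0.42 CPM to 1.01 to 2.05 CPM (2.62 ± 0.53, edgeR adjusted p = 0.019). Ifi47, an immunity-related GTPase gene beside Tgtp2, did not pass the filter on low counts. Of 4 other guanylate-binding protein genes, edgeR called 0 in either direction (2 lower at an unadjusted p under 0.05, 0 by DESeq2), with a median of -0.60. Of the interferon-induced chemokine genes only Cxcl10 was tested, with a change of 0.59.

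Across the 20 combinations of cluster and library with at least 50 barcodes, the promoters whose log2 CPM followed the mean of the 10 most closely were Phykpl (Pearson r = 0.93), Il6 (0.93), Artn (0.92), Klhdc7a (0.92) and A630023A22Rik (0.92), of 12196 compared outside the interferon lists. At the 5′-most starts, each of the 10 correlated with the mean of the other 9 at 0.56 (Iigp1) to 0.89 (Tgtp1). The windows of Irgm2 and Igtp start 62 bp apart there and hold nearly the same cut sites. All 10 were selected on injured against uninjured cells, which also separates many of these points, so nothing is read from these correlations. The points share libraries, depth and clusters, so these values only describe the pattern.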

How the data were processed

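Single-nucleus ATAC libraries (10x Genomics) of 3 uninjured and 3 injured samples were used. The deposited fragment tables list each deduplicated fragment with its barcode and a count of read pairs; the submitters' processing notes name Cell Ranger 2.0.0 and mm10, and the handling of reads with several matches is not given in the sources used here. Both ends of every fragment of barcodes with at least 2000 fragments were counted as cut sites within 1000 bp of the 5′-most GENCODE start, over the gene body outside that window, and in open regions. Depth was 14825320 to 44875242 cut sites per library. Each table was filtered on low counts, scaled by TMM and fitted with edgeR 4.0.16 (quasi-likelihood, robust, Benjamini-Hochberg adjustment), without a replicate block; DESeq2 1.42.0 was an alternative. On simulated data with known changes, 72.6% of promoters changed by 1 on the log2 scale and 86.9% of those changed by 2 were called, as were 37.7% and 91.0% of gene bodies and 0.524% and 26.0% of open regions. Each simulated table held 191 to 200 changed rows, fewer than were called in the data, so these shares apply to that setting only. Barcodes were clustered with scanpy 1.11.5 after leaving out 1924 regions within 100 kb of interferon pathway genes, and clusters were named by marker levels with limits chosen after the data had been seen.

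The genes and pathway lists were chosen with earlier results of these data known. Named were all 10 genes, pathway genes called in the promoter comparison, a few signalling or family genes whether called or not (1 of them is not reported here), the regions over each start with up to 3 of the strongest others within 50 kb, and the 5 promoters most alike in pattern. Windows at RefSeq starts were added after the annotation had been seen. Same-numbered replicates were checked for pairing (correlations of 0.043, 0.169 and 0.200) and were not treated as pairs. Deposited peak matrices were not used.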

Additional observations from a re-analysis of the deposited data

How the results depend on the processing

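Over 20 alternatives for promoters, 8 of the 10 genes kept a change below 0; Gbp3 ranged from -0.68 to 0.13 and Iigp1 from -0.49 to 0.48, and the sum of all 10 from -1.28 to -0.64. Promoters called lower numbered 294, and 9854 with scaling by 10 kb bins, 6595 by total cut sites, 477 with DESeq2, 178 with a window of 500 bp, 490 with 2000 bp, and 194 with barcodes of at least 20% in open regions; those called higher numbered 378, and 633 with DESeq2. Members called lower went from 3 to 9 (bins) and 7 (total), and other pathway genes from 9 to 48 (bins), 40 (total) and 3 (500 bp), with 1 higher (bins). In HBC-like cells, scaling by total cut sites gave 5768 lower promoters, 8 members and 41 other pathway genes. Gene bodies called lower numbered 141 with total cut sites and 925 with DESeq2, and higher 883 with DESeq2; open regions called lower numbered 5388 and 4427. With the replicate block, promoters called higher numbered 775 and lower 1011, members lower 4 (Irgm1 added), other pathway genes lower 19, HBC-like promoters lower 830 with 19 other pathway genes, gene bodies higher 673 and lower 563, and open regions lower 4162. Same-numbered samples share an age in the labels but no stated litter, batch or day, and injured replicate 1 correlated best with uninjured replicate 2. Leaving out 1 library at a time gave 27 to 602 lower and 68 to 758 higher promoters, 1 to 4 members, 0 to 14 lower and 0 to 4 higher other pathway genes; in HBC-like cells 58 to 688 and 209 to 1081 promoters, 2 to 4 members, 3 to 22 and 1 to 3 other pathway genes; 0 to 852 lower and 0 to 895 higher bodies with 0 to 4 members; and 0 to 4905 lower and 0 to 17571 higher open regions. The cause of these differences was not tested. Tgtp2, Gm12185 and Iigp1 rest on 4 to 65 cut sites per library at their RefSeq starts, which limits their precision.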

Other observations

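Some further regions near these genes were chosen after their values had been seen, and not all were lower after injury. A region in an intron of Gm5431 (chr11:48899001-48900000), between Irgm1 and Gm12185, read 1.15, 0.674 and 1.43 CPM in uninjured and 5.61, 4.42 and 3.11 CPM in injured libraries, a log2 change of 2.02 ± 0.40. A region upstream of Irf1 (chr11:53766501-53767000) read 0.891, 1.195 and 0.327 CPM against 4.17, 3.20 and 2.02 CPM, a change of 1.97 ± 0.51. Every injured library lay above every uninjured library at both, as at 8 of the 67 regions near these genes and 15.5% of all regions tested. A region in an intron of Ifi47 and Olfr56 (chr11:49081001-49082000), beyond Tgtp2, read 1.40, 0.889 and 1.01 CPM against 0.343, 0.243 and 0.274 CPM, a change of -1.90 ± 0.50.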
